A study of Mus musculus with 10 samples.

Results

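The transcripts of 9 genes of the cap-binding machinery were examined: the RNA helicases Eif4a1 and Eif4a2, the helicase cofactors Eif4b and Eif4h, the cap-binding protein Eif4e, the scaffolds Eif4g1 and Eif4g2, and the eIF4E-binding proteins (4E-BPs) Eif4ebp1 and Eif4ebp2. The rule took genes by name, although the set was drawn up with earlier results of these data known, and all 9 were detected in each of the 10 libraries. Together they held 9810 of 2042110 kept alignments, called reads here, and they are 9 of the 13272 genes with a kept read. The cells were wild-type P19, an undifferentiated mouse embryonal carcinoma line, transfected with an siRNA against Larp1 (siLarp1) or with a pool of scrambled siRNAs (siCtl). At 24 h each treatment had 3 libraries and at 48 h 2, the latter from cells transfected a further time at 24 h, and the study's methods describe the libraries of a group as biological replicates. The RNA was selected for poly(A) tails and read directly on a nanopore, where 1 read is 1 molecule threaded from its 3′ end, so that read counts were not divided by transcript length. All cells therefore share the transfection and the poly(A) selection, and a molecule without a tail was not measured.

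The genes lie on 8 chromosomes, with coordinates of GRCm38 from GENCODE vM21. Of the eIF4F subunits, Eif4e (ENSMUSG00000028156.12) lies at chr3:138526179-138559696 on the plus strand, Eif4a1 (ENSMUSG00000059796.16) at chr11:69666936-69672423 on the minus strand, and Eif4g1 (ENSMUSG00000045983.16) at chr16:20668313-20692884 on the plus strand. Eif4a2 (ENSMUSG00000022884.15) is on the same chromosome as Eif4g1, at chr16:23107444-23114136 on the plus strand. Eif4g2 (ENSMUSG00000005610.17) lies at chr7:111067750-111083030, minus strand. The cofactors Eif4b (ENSMUSG00000058655.9) and Eif4h (ENSMUSG00000040731.13) lie at chr15:102073773-102097173, plus strand, and chr5:134619721-134639490, minus strand. Eif4ebp1 (ENSMUSG00000031490.6) lies at chr8:27260329-27276674, plus strand, and Eif4ebp2 (ENSMUSG00000020091.15) at chr10:61428491-61452661, minus strand.

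Translation of most mRNAs starts when eIF4E binds the 5′ cap and, with the scaffold eIF4G and the helicase eIF4A, forms the eIF4F complex. eIF4B and eIF4H stimulate the helicase, and eIF4G also contacts the protein that coats the poly(A) tail. The 4E-BPs compete with eIF4G for eIF4E until the kinase mTOR phosphorylates them. LARP1 is a further target of mTOR known for its binding to mRNAs that begin with a terminal oligopyrimidine (TOP) motif, many of which encode ribosomal proteins. The comparison of siLarp1 with siCtl asks what happens to tails and abundance when Larp1 is lowered.

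Depth ranged from 112720 to 423398 kept reads per library, and from 523 to 1979 reads of the 9 genes. Each siLarp1 library at 24 h was shallower than each siCtl library at 24 h. At 24 h no sequencing run held both treatments, so that run and siRNA cannot be told apart. The 48 h runs each held both. Larp1 itself, in reads per 1000000 kept reads (RPM), was at 32.4 ± 12.9 RPM (SD, n = 3) with siLarp1 at 24 h, below the siCtl level of 81.7 ± 5.04 RPM (SD, n = 3), without overlap. A two-sided exact permutation test gave p = 0.1, which is the lowest value such groups can reach. At 48 h Larp1 was at 21.7 ± 4.51 RPM (SD, n = 2) against 146 ± 32.1 RPM (SD, n = 2), again without overlap (exact permutation p = 0.333, the lowest value possible). These levels rest on few Larp1 reads, 13 in siLarp1 and 87 in siCtl at 24 h, and 6 and 41 at 48 h. The 6 pluripotency markers all had reads, with a summed level of 2922 to 3731 RPM per library, 4 of 4 neuron markers summed to 191 to 366 RPM, and 2 of 3 endoderm markers to 0 to 6.37 RPM. Neuron and endoderm markers overlapped between treatments at both times, whereas the pluripotency markers at 48 h lay between 3634 and 3683 RPM in siLarp1, above the 3106 to 3495 RPM of siCtl. The part of these cells in the results below was not tested.

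Transcripts of the 9 genes ended at places that the annotation does not always mark, and these 3′ ends are shown first because the tails described below start there. Read ends within 25 nt of the most used position were joined, and positions with at least 5% of a gene's reads were kept. This gave 18 positions, all in the 3′ UTR of the last annotated exon (build GRCm38, GENCODE vM21), and 17 of them had AATAAA or ATTAAA in the 40 nt before the end on the gene's strand. Below are the 30 nt up to the end for the genes with more than 1 main end, with the poly(A) signal in capitals:
Eif4a1 distal end, chr11:69666937-69666966, minus strand: aattctgAATAAAattacttggaaactgcc
Eif4a1 proximal end, chr11:69667295-69667324, minus strand: atgAATAAAtgtcactttttgaggcaaaaa
Eif4b distal end, chr15:102097144-102097173, plus strand: tctccaAATAAAtccagtctttaaagttga
Eif4b proximal end, chr15:102095407-102095436, plus strand: caagacaaAATAAActcaccatctcctgaa
Eif4e first end, chr3:138556118-138556147, plus strand: gaaaggtggAATAAAcattaaatttgtgca
Eif4e second end, chr3:138556428-138556457, plus strand: AATAAAatgtgtacagtgaattgtctttta
Eif4ebp1 main end, chr8:27275486-27275515, plus strand: tgacaggaAATAAAagccacatttacccta
Eif4ebp1 second end, chr8:27275532-27275561, plus strand: ggccctgtctgaactgttttccactcgaaa
Eif4ebp2 distal end, chr10:61428491-61428520, minus strand: ttacagttaAATAAAgaccttgaatactga
Eif4ebp2 proximal end, chr10:61431790-61431819, minus strand: ttttaATTAAActccaaatttcatttccta

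Eif4a1 was divided between its ends, with 52.0% of reads at the distal end, which is the annotated one to within 1 nt, and 43.5% at the proximal end 359 nt before it. Eif4e used its first end in 30.5% and its second end in 45.2% of reads, at 3549 and 3239 nt before the end of its annotated transcript ENSMUST00000029803.11, and a further 10.2% ended at 2787 nt before it. Eif4ebp1 ended 1159 nt before the annotated end of its coding transcript ENSMUST00000033880.6 in 81.1% of reads. Another annotated transcript, ENSMUST00000210959.1, ends close to that position, at chr8:27275498. The second end of Eif4ebp1, with 155 of 1111 reads, was the only 1 of the 18 without either signal. Eif4ebp2 used an ATTAAA end 3299 nt before the annotated end in 52.7% of reads and the annotated end in 41.5%. Eif4b used its annotated end in 62.7%, the proximal end 1737 nt upstream in 24.0% and an end between these in 47 of 429 reads. Eif4g2 ended 4182 nt before the end of its longer transcript in 87.9% of reads. That position is the annotated end of its shorter transcript, ENSMUST00000161051.7. Eif4g1, with ATTAAA, and Eif4h had a single main end, with 98.6% and 94.4% of reads.

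The start sites are shown because a TOP motif lies at the 5′ end of its mRNA. RefSeq windows of the same build were found for 7 of the 9 genes, from 15 nt before to 15 nt from the annotated start, and runs of at least 5 letters C or T on the gene's strand are in capitals. Of all 32851 promoter windows, 47.3% hold such a run, so that a match is common. Eif4b, Eif4g1 and 1 of 2 Eif4e starts held a run, and Eif4a1, Eif4a2, Eif4h, Eif4ebp2 and the other Eif4e start held none. These are RefSeq starts, not starts measured in the reads. The annotated start of the transcript with the most reads lies in the window for Eif4b and Eif4ebp2, and outside it for Eif4a1, Eif4a2 and Eif4h. Eif4g1 has 3 transcripts with 49 reads each, of which 1 starts in the window. The Eif4e window with a run lies just before the start of ENSMUST00000200239.4, which had 3 of 442 reads, while ENSMUST00000029803.11, with 439 reads, starts in the window without a run. The windows with a run are shown with Rpl4, which encodes a ribosomal protein, for comparison:
Eif4b, chr15:102073758-102073787, plus strand: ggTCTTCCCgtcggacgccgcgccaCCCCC
Eif4g1, chr16:20672712-20672741, plus strand: cgccagcgcagctccgCCCTCTgcgccggt
Eif4e, chr3:138527253-138527282, plus strand: tcgCCCCCCCTTCaggagcggttgtgcgat
Rpl4, chr9:64173372-64173401, plus strand: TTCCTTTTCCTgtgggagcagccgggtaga

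The 9 genes differed widely in level, and the helicase Eif4a1 stood above the others in every library. Over 10 libraries it was at 2491 ± 178 RPM (SD), from 2198 to 2696 RPM, which is rank 91 of 13272 genes and 52.5% of the reads of the 9 genes. Its close relative Eif4a2, the other helicase of the complex, was at 125 ± 21.4 RPM, and a library held between 17.3 and 29.5 Eif4a1 reads for each Eif4a2 read. The scaffold-like Eif4g2, which lacks the site that binds eIF4E, followed at 618 ± 145 RPM, and the full scaffold Eif4g1 was at 147 ± 41.8 RPM. Eif4ebp1 was at 537 ± 84.2 RPM and Eif4ebp2 at 129 ± 34.7 RPM. The cofactors Eif4h and Eif4b were at 321 ± 44.9 RPM and 211 ± 57.8 RPM, and Eif4e was at 215 ± 53.0 RPM.

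In the order Eif4a1, Eif4g2, Eif4ebp1, Eif4h, Eif4e, Eif4b, Eif4g1, Eif4ebp2 and Eif4a2, only 2 neighbouring pairs had ranges over the libraries that did not overlap: Eif4a1 above Eif4g2, and Eif4ebp1 above Eif4h. The levels of Eif4e and Eif4b could not be told apart, with Eif4e higher in 5 of 10 libraries. There were 1.92 to 3.57 reads of Eif4ebp1 for each read of Eif4e (median 2.54 over 10 libraries), so that the mRNA for the inhibitor exceeded that for its target in every library. Eif4g2 exceeded Eif4g1 between 2.32 and 6.51 times.

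Most reads of the 9 genes were assigned to coding transcripts, and the genes differed in how many they used. Eif4b had a single transcript, ENSMUST00000169681.2, and Eif4e and Eif4ebp1 had 99.3% and 99.8% of reads on 1 transcript. Eif4h was divided between ENSMUST00000202622.3, with 58.1% of reads, and ENSMUST00000036125.9, with 41.7%. Eif4g2 had 71.6% on ENSMUST00000162415.8 and 28.4% on ENSMUST00000161051.7. Eif4a1 had 86.0% of its reads on coding transcripts and 13.3% on transcripts annotated with a retained intron, with median tails of 112.9 nt and 106.1 nt. Of the reads on the Eif4a1 transcripts with a retained intron 98.5% had a mapping quality of 0, against 7.59% on the coding one. The same was true of 31.3% and 90.6% of reads on the Eif4g2 transcripts and of 32.4% and 55.2% on those of Eif4h, in the order above, so that these divisions between transcripts are not resolved by the alignments. Eif4g1 was spread over 5 coding transcripts and 1 annotated for nonsense-mediated decay with 36 to 49 reads each, and nearly all of its reads had a mapping quality of 0, so that its transcripts cannot be separated here.

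**Figure D1:**
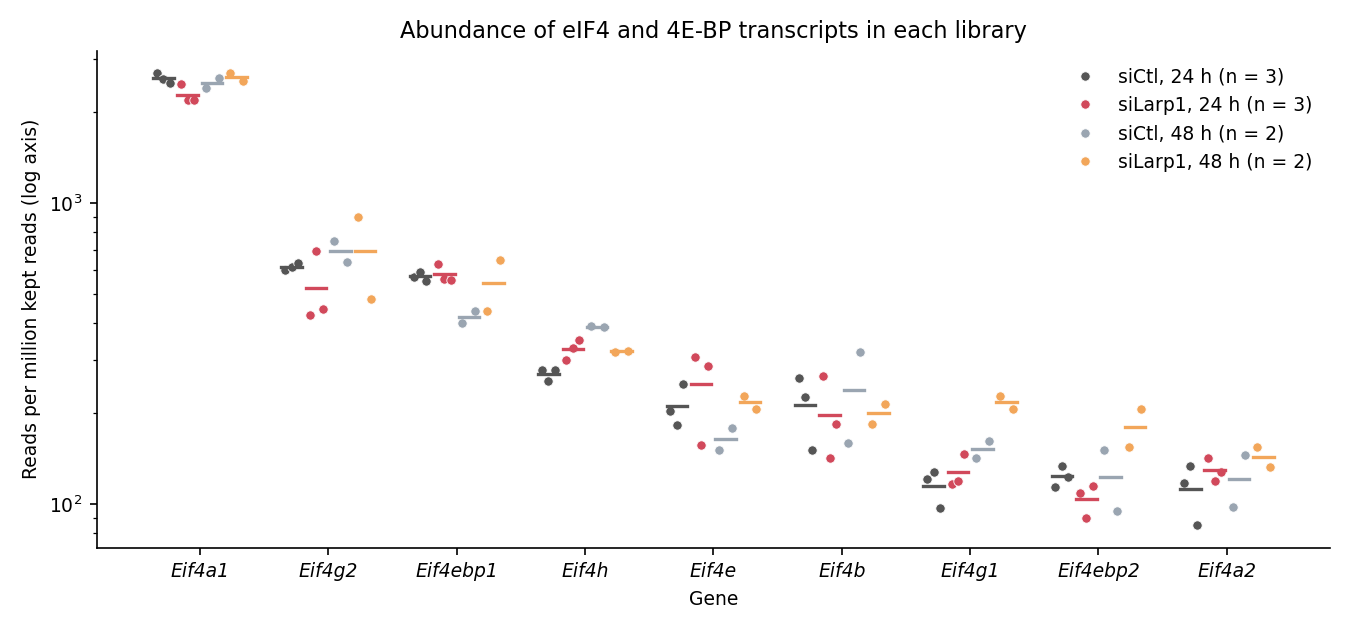
Reads per 1000000 kept reads (RPM, log axis) of each of the 9 genes in each of 10 libraries, coloured by group, with a bar at the group mean. Eif4a1 lies above 2198 RPM in every library and no other gene exceeds 901 RPM.

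Eif4a2 had the longest tails of the 9 genes. Its library medians ran from 133.5 to 214.8 nt around a mean of 181.9 nt, and in every library its median was above that of Eif4b, the gene next in order with a mean of 113.8 nt. Among the 2612 genes with at least 100 kept reads, whose mean library median had its centre at 103.7 nt, Eif4a2 ranked 1, and the gene after it was at 171.7 nt. The rank was 1 in the siCtl libraries, 2 in the siLarp1 libraries and 9 among the 5858 genes with at least 30 reads. Tails over 200 nt made up 42.9% of Eif4a2 reads and 8.47% of Eif4a1 reads.

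Eif4a2 reads were assigned about as often to transcripts annotated for nonsense-mediated decay as to coding ones. That pathway removes mRNAs with an early stop codon. The coding transcript with the most reads, ENSMUST00000023599.12 (chr16:23107444-23113947, plus strand, 11 exons, 2208 nt), held 86 of 247 reads. The transcript ENSMUST00000123413.7 (chr16:23107777-23113930, plus strand, 12 exons, 1965 nt), annotated for that pathway, held 79 reads. By annotation class, coding transcripts held 54.3% and nonsense-mediated decay transcripts 44.9% of Eif4a2 reads, the latter from 5 of 20 to 7 of 11 reads per library. A mapping quality of 0 was found for 32.1% of the coding and 27.9% of the decay reads, so that this division is only partly resolved. Tails were at 196.6 nt in the median of the decay class and at 155.1 nt in that of the coding class. The decay class was longer in 7 of 10 libraries, with library medians of 199.1 ± 49.4 nt (SD, n = 10) against 158.1 ± 33.3 nt, so that the libraries overlapped widely. With coding reads alone Eif4a2 ranked 4 among the same genes. A library held only 11 to 46 Eif4a2 reads, and molecules read short of the 5′ end may be given to either class.

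**Figure D2:**
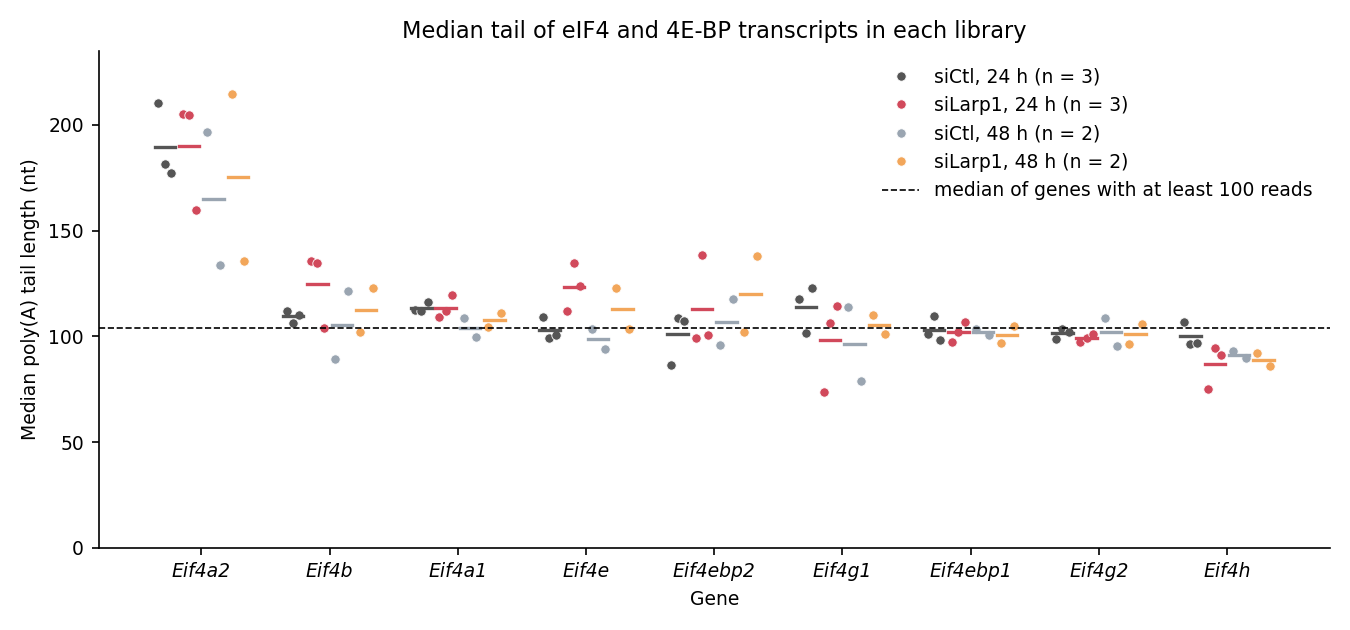
Median poly(A) tail length in nt of each gene in each library, coloured by group, with a bar at the group mean and a dashed line at 103.7 nt, the centre of 2612 genes with at least 100 reads. Eif4a2 lies between 133.5 and 214.8 nt, and Eif4h is the lowest in the order with a mean of 92.1 nt.

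Eif4h had the shortest tails of the 9, with library medians from 74.9 to 106.8 nt, and 11.9% of the 2612 genes had a shorter mean. The other 7 genes lay between 100.8 nt (Eif4g2) and 113.8 nt (Eif4b) in their mean library median, and neighbours in that order overlapped without exception. Eif4a1 ranged from 99.5 to 119.6 nt. Tails under 30 nt, a class the study examined, made up 0.775% of Eif4ebp2 reads (2 of 258), 1.34% of Eif4g2 reads, 1.79% of Eif4a1 reads (92 of 5149), 3.83% of Eif4h reads and 4.29% of Eif4g1 reads (12 of 280).

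The shape of the tail distribution was compared with that of other genes by the overlap of the shares of reads in 10-nt bins, over 10 libraries and 275 other genes with at least 1000 reads. The profile of Eif4a1 was most like that of Hsp90ab1, a cytosolic chaperone, with 95.5% overlap against a median of 88.2% over those genes. Eif4g2 was most like Atp5a1, a subunit of the mitochondrial ATP synthase, at 94.3%, and Eif4ebp1 most like Mif, a secreted cytokine, at 93.3%. The other 6 members had too few reads for this comparison.

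**Figure D3:**
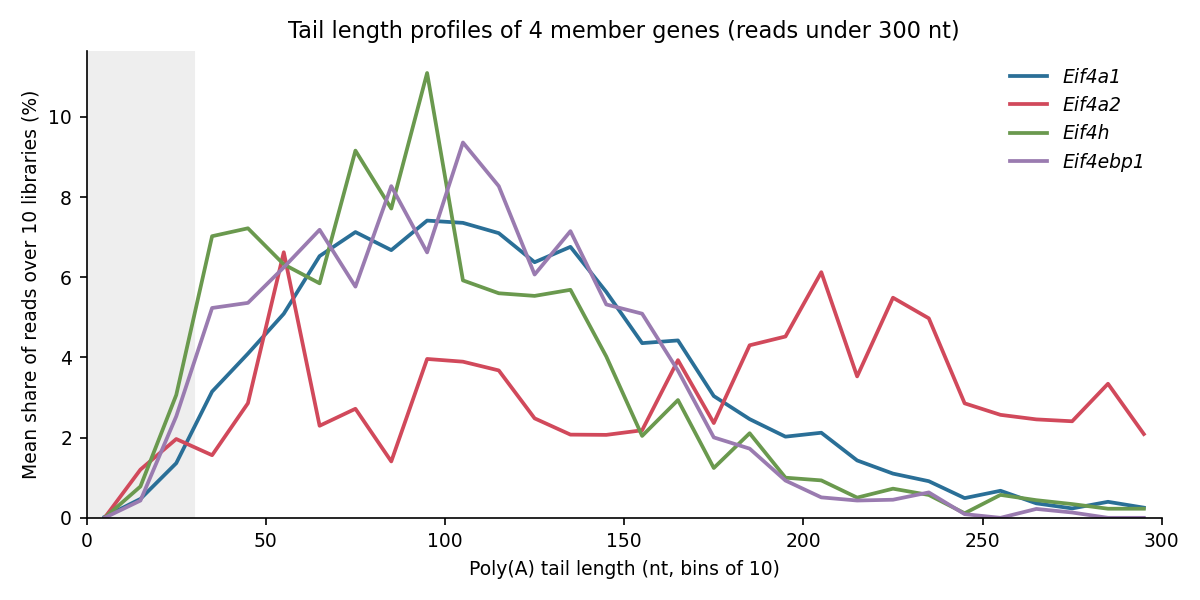
Mean share of reads (%) over 10 libraries in 10-nt bins of tail length for Eif4a1, Eif4a2, Eif4h and Eif4ebp1, with the class under 30 nt shaded. Eif4a2 spreads far beyond the others, with 42.9% of its reads over 200 nt against 2.43% for Eif4ebp1.

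Short tails were more frequent at one 3′ end of Eif4a1 than at the other. At the distal end of Eif4a1, 76 of 2680 reads had tails under 30 nt (2.84%, exact 95% binomial interval 2.24% to 3.54%), and at the proximal end 7 of 2241 did (0.312%, 0.126% to 0.643%). The share was higher at the distal end in each of 10 libraries, from 2.30% to 3.83% against 0.0% to 1.75%. The medians of both ends were close, at 109.8 ± 6.33 nt (SD, n = 10) at the distal and 112.3 ± 7.25 nt at the proximal end. With a mapping quality of at least 10 the shares were 2.76% and 0.255%. This contrast was noticed in these data and is given as a description. The intervals cover counting error only.

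In Eif4b the medians of both ends lay apart. Reads at its proximal end had a median tail of 87.5 nt and those at the distal end one of 126.5 nt, and the distal end was longer in 8 of the 9 libraries with reads at both, by 48.9 ± 33.0 nt (SD, n = 9). In these libraries the proximal medians rest on only 2 to 25 reads each, and the mean weights all libraries equally. Short tails made up 6.80% (7 of 103 reads) at the proximal and 1.49% (4 of 269 reads) at the distal end, with exact intervals that overlap (2.78% to 13.5% and 0.407% to 3.76%). Eif4ebp2 was longer at its distal end in 8 of 10 libraries, but the mean difference of 17.1 ± 26.0 nt was smaller than its SD. For Eif4a2, Eif4e, Eif4ebp1 and Eif4g2, too, the mean difference between ends was smaller than its SD over libraries.

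The choice of end in Eif4a1 and Eif4ebp2 overlapped between treatments. In the siCtl libraries at 24 h, 50.3 ± 0.315% (SD, n = 3) of Eif4a1 reads ended at the distal end. In siLarp1 the distal share was 52.6 ± 3.18% (SD, n = 3) at that time. At 48 h it was 54.7 ± 0.970% for siCtl against 54.3 ± 7.68% for siLarp1 (SD, n = 2 each). For Eif4ebp2, with 12 to 52 reads per library, the distal share ran from 16.7% to 61.5% among the siLarp1 libraries at 24 h alone.

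**Figure D4:**
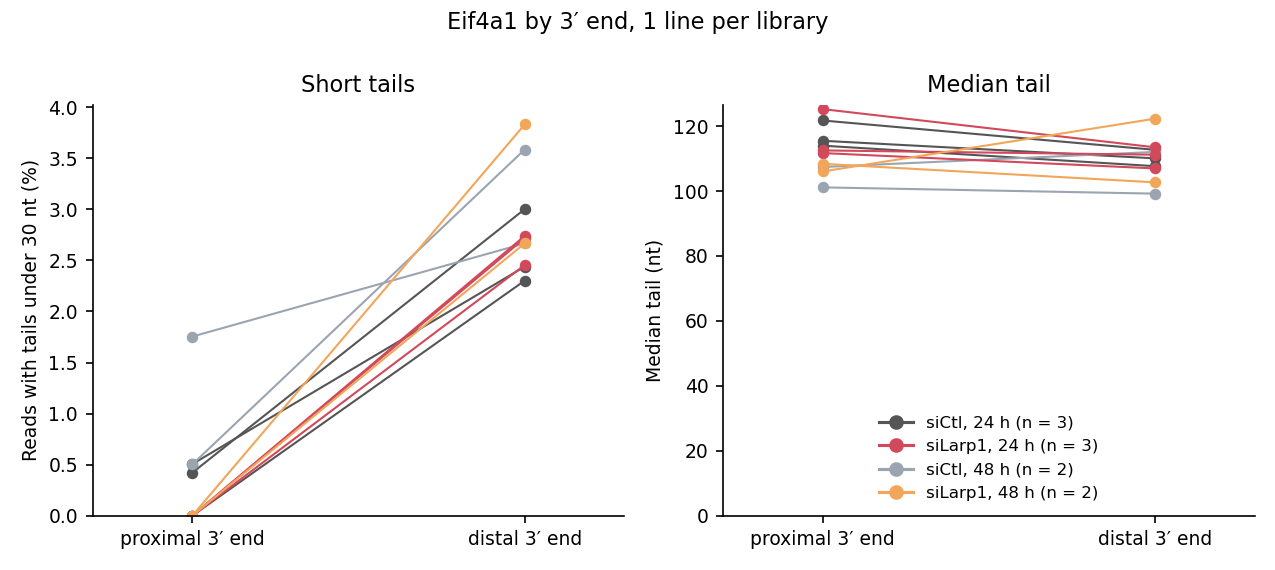
Share of Eif4a1 reads with tails under 30 nt (%, left) and median tail (nt, right) at the proximal and the distal 3′ end, with 1 line per library coloured by group. Every line rises to the distal end on the left, from at most 1.75% to between 2.30% and 3.83%, while the medians stay close.

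None of the 9 genes passed the threshold (Benjamini-Hochberg adjusted p under 0.05, limma or a quasi-binomial model over all genes) in abundance, median tail, share of tails under 30 nt or share of 30 to 90 nt, at either time. All 9 passed the filter on low values. Few genes of the transcriptome did pass. In abundance the percentage of 5858 genes called was 0.0% in either direction at 24 h and 0.0171% in each direction at 48 h. In median tail it was 0.0% of 5431 genes at both times, and in the share under 30 nt 0.0% of 4597 genes. In the share of 30 to 90 nt, another class the study examined, it was 0.11% of 5431 genes, all higher in siLarp1, at 24 h and 0.0% at 48 h. At an unadjusted p under 0.05 the same models gave 5 calls among the 9 genes. Abundance had 0 higher and 1 lower in siLarp1 at 24 h, beside 3.89% and 1.93% of all genes, and none at 48 h, beside 2.68% and 2.25%. Median tail had 1 higher at 24 h and 0 lower, beside 3.9% and 1.99%, and none at 48 h, beside 3.37% and 2.06%. The share under 30 nt had 1 higher and 0 lower at 24 h, beside 3.28% and 0.479%, and none at 48 h, beside 2.63% and 0.566%. The share of 30 to 90 nt had none at 24 h, beside 2.23% and 3.74%, and 0 higher and 2 lower at 48 h, beside 1.9% and 4.27%. In bulk RNA, fewer cells of a kind and less RNA per cell cannot be told apart.

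Eif4a1, the most deeply read of the genes, was lower in siLarp1 libraries at 24 h. The siCtl libraries held 2696, 2585 and 2506 RPM and the siLarp1 libraries 2478, 2198 and 2203 RPM, so that the groups did not overlap. The siCtl mean of 2596 ± 95.2 RPM (SD, n = 3) compared with 2293 ± 160 RPM (SD, n = 3), a log2 fold change of -0.18 (SE 0.07) with an unadjusted p of 0.0128 and an adjusted p of 0.764 (limma voom). Of all genes tested, 6.06% were lower in siLarp1 without overlap at 24 h. Within the 24 h runs, which each held 1 treatment only, the siCtl libraries ranged from 2280 to 2919 RPM and the siLarp1 libraries from 1959 to 2688 RPM, so that runs overlapped. At 48 h the siCtl libraries held 2404 and 2602 RPM and the siLarp1 libraries 2696 and 2547 RPM, with overlap and a log2 fold change of 0.06 (SE 0.10).

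Eif4h was higher in siLarp1 at 24 h and lower at 48 h. At 24 h the siCtl libraries held 279.6, 255.6 and 278.7 RPM and the siLarp1 libraries 300.3, 329.0 and 350.2 RPM. At 48 h the siCtl libraries held 390.3 and 386.1 RPM and the siLarp1 libraries 320.8 and 323.5 RPM. Neither pair of groups overlapped, and 1 of 9 members was higher without overlap at 24 h against 5.05% of all genes. The log2 fold changes were 0.28 (SE 0.16, adjusted p = 0.865, limma) at 24 h and -0.27 (SE 0.22, adjusted p = 0.947) at 48 h. With strict reads (mapping quality of at least 10, barcode confidence of at least 0.9 and a single alignment), which kept 214 of 626 Eif4h reads, the log2 fold change at 48 h was 0.058.

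At 48 h both 4E-BP genes, Eif4e and Eif4g1 were higher in siLarp1 without overlap, that is 4 of 9 members. With 2 libraries against 2 this held for 18.1% of all genes in that direction and 15% in the other, which 1 member, Eif4h, followed. Eif4ebp2 was at 150.8 and 95.1 RPM in siCtl and at 154.2 and 207.4 RPM in siLarp1 libraries, a log2 fold change of 0.61 (SE 0.32, adjusted p = 0.944, limma). Eif4g1 was at 141.9 and 162.3 RPM in siCtl and at 228.3 and 207.4 RPM in siLarp1, a log2 fold change of 0.50 (SE 0.29, adjusted p = 0.944). Eif4e was at 150.8 and 179.1 RPM and at 228.3 and 207.4 RPM, a log2 fold change of 0.38 (SE 0.30, adjusted p = 0.944). Eif4ebp1 was at 399.2 and 436.5 RPM and at 438.1 and 647.0 RPM, with 0.30 (SE 0.20, adjusted p = 0.944). These differences rest on 16 to 78 reads per library. At 24 h Eif4ebp1 held 570.6 ± 18.5 RPM with siCtl against 580.1 ± 39.6 RPM with siLarp1 (SD, n = 3 each), a log2 fold change of 0.03 (SE 0.13).

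Abundance of the other members overlapped between treatments. Eif4g2 at 24 h held 600.5, 612.9 and 630.6 RPM in siCtl and 425.5, 695.3 and 445.7 RPM in siLarp1, 1 library of which was above all siCtl libraries, and the log2 fold change was -0.27 (SE 0.15, adjusted p = 0.858, limma). At 48 h it was 0.00 (95% interval -0.37 to 0.37). Eif4b had log2 fold changes of -0.08 (95% interval -0.51 to 0.35) at 24 h and -0.29 (-0.87 to 0.30) at 48 h. Eif4a2 had 0.28 (-0.21 to 0.76) and 0.21 (-0.46 to 0.88).

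Eif4e tails were longer in siLarp1 at 24 h. Library medians were 109.2, 99.2 and 100.9 nt in siCtl and 112.1, 134.5 and 123.7 nt in siLarp1, without overlap, which held for 6.54% of 5125 genes with reads in all libraries of that time. The fitted difference was 19.2 nt (SE 7.96, unadjusted p = 0.0212, adjusted p = 0.776, limma). No Eif4e read of a siLarp1 library at 24 h had a tail under 30 nt (0 of 37, 0 of 21 and 0 of 45), while 2 of 59, 3 of 63 and 1 of 106 did in siCtl. Taken as at most 3 reads of the total, tallies of 0 at these depths allow shares of up to 8.11%, 14.3% and 6.67%, and the exact 95% binomial upper limits are 9.49%, 16.1% and 7.87%. This difference had an adjusted p of 0.838 (quasi-binomial model), and 3.43% of 4405 genes were lower without overlap. At 48 h the Eif4e medians were 103.6 and 93.9 nt in siCtl and 122.6 and 103.5 nt in siLarp1, with a slight overlap, and the fitted difference was 17.7 nt (SE 12.8). The lowest siLarp1 library and the highest siCtl library were 103.54 and 103.58 nt.

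Eif4h tails were shorter in siLarp1 at 24 h. Library medians were 106.8, 96.4 and 96.8 nt in siCtl and 74.9, 94.3 and 91.3 nt in siLarp1, without overlap. The fitted difference was -11.5 nt (SE 7.06, adjusted p = 0.865, limma), and 5.09% of genes were lower without overlap. Without 1 siLarp1 library, number 19, with 36 Eif4h reads, it was -6.82 nt.

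Among the other members, medians overlapped between treatments at both times. Eif4b at 24 h had medians of 111.8, 106.5 and 109.9 nt in siCtl and of 135.6, 134.4 and 103.8 nt in siLarp1, a fitted difference of 14.4 nt (SE 9.35, adjusted p = 0.892, limma). Eif4a2 at 48 h had 196.6 and 133.5 nt in siCtl and 214.8 and 135.7 nt in siLarp1, a fitted difference of 31.6 nt (SE 20.1, adjusted p = 0.940). The deeper genes gave narrower limits. The 95% interval of the difference was -6.14 to 6.53 nt for Eif4a1 and -13.0 to 8.74 nt for Eif4g2 at 24 h.

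Eif4g1 showed differences in both tail classes at low depth. Tails under 30 nt were found in 0 of 35, 2 of 44 and 0 of 41 reads of the siCtl libraries at 24 h and in 2 of 14, 2 of 16 and 1 of 23 reads of the siLarp1 libraries, with overlap. The adjusted p was 0.838 (quasi-binomial model) at an unadjusted p of 0.0421. At 48 h such tails were found in 0 of 16 and 3 of 29 reads of siCtl and in 1 of 37 and 1 of 25 reads of siLarp1. The share of 30 to 90 nt at 48 h was 43.8% and 55.2% in siCtl and 27.0% and 32.0% in siLarp1, without overlap, a log2 odds ratio of -1.33 (SE 0.61, unadjusted p = 0.0264, adjusted p = 0.760).

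Eif4a1 at 48 h had 37.6% and 38.1% of its tails between 30 and 90 nt in siCtl and 33.6% and 31.6% in siLarp1, a log2 odds ratio of -0.32 (SE 0.16, unadjusted p = 0.0488, adjusted p = 0.796, quasi-binomial model). The 4 libraries were sequenced together in 2 runs. In the first, with more reads, the shares were 37.9% and 39.6% in siCtl and 35.1% and 31.2% in siLarp1, and in the second 36.8% and 34.3% against 29.5% and 32.6%, without overlap in either. Of all genes, 18.9% were lower in this share without overlap at 48 h. At 24 h the Eif4a1 share was 30.8 ± 1.6% for siCtl against 31.1 ± 2.94% for siLarp1 (SD, n = 3 each).

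The share of Eif4a1 tails under 30 nt differed between treatments by less than the spread. At 24 h it was 1.47 ± 0.285% for siCtl against 1.48 ± 0.220% for siLarp1 (SD, n = 3 each), and at 48 h 2.40 ± 0.259% against 2.46 ± 0.722% (SD, n = 2 each). The 95% interval of the log2 odds ratio was -0.84 to 0.90 at 24 h. At 48 h it was -0.87 to 0.99. The genes with a lower share under 30 nt and no overlap at 48 h were Eif4a2 and Eif4g2, which had 1 to 3 such reads in each siCtl library, and 5.0% of all genes were lower without overlap.

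**Figure D5:**
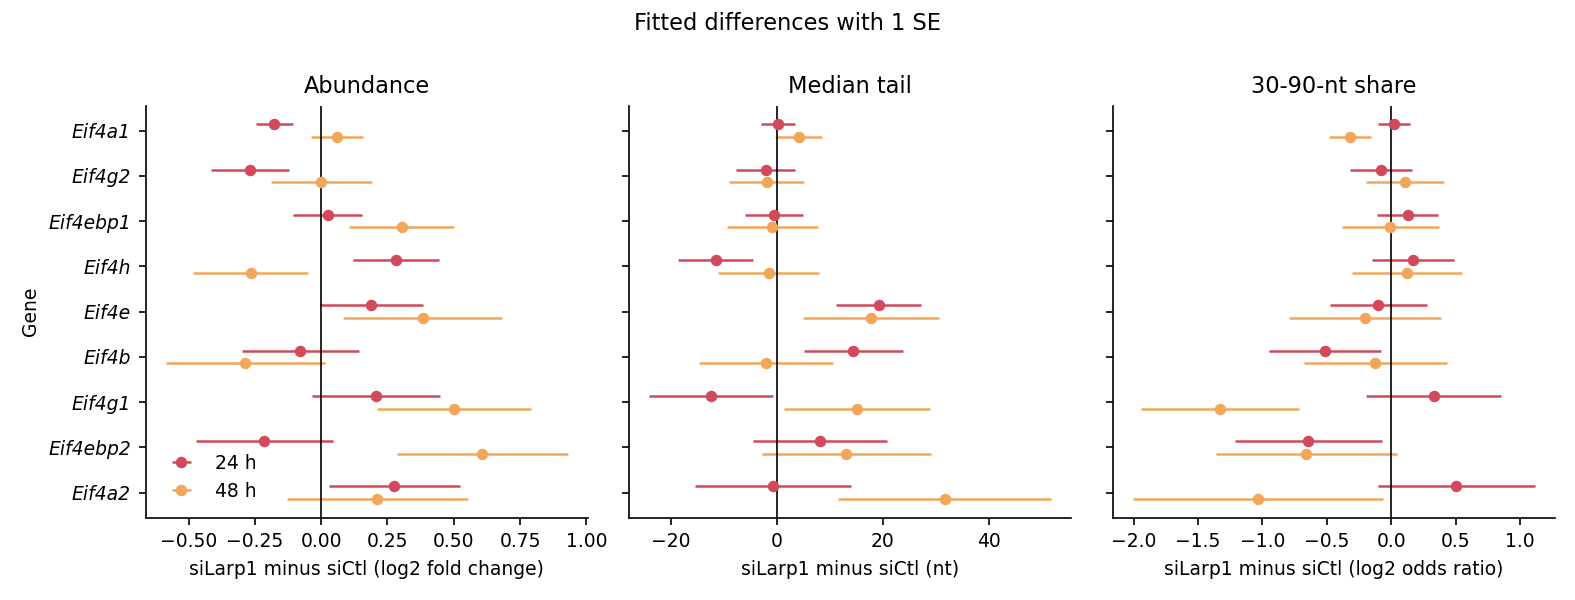
Fitted difference between siLarp1 and siCtl with 1 SE for the 9 genes, in abundance (log2 fold change), median tail (nt) and share of tails of 30 to 90 nt (log2 odds ratio), at 24 h and 48 h. None passes an adjusted p of 0.05, and the SE is smallest for Eif4a1, at 0.07 in abundance at 24 h.

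Pooled over the 9 genes, tails under 30 nt made up 1.65 ± 0.125% of siCtl reads against 1.95 ± 0.520% of siLarp1 reads at 24 h (SD, n = 3 each), with overlap. At 48 h the pooled share was 2.88 ± 0.554% against 2.71 ± 0.768% (SD, n = 2 each), again with overlap. In the 82 ribosomal protein genes the siLarp1 share was higher without overlap at both times, 3.08 ± 0.138% against 1.78 ± 0.101% at 24 h and 4.32 ± 0.227% against 2.50 ± 0.331% at 48 h. Over all kept reads, those of ribosomal protein genes included, it was also higher without overlap. There the highest siCtl and the lowest siLarp1 library were at 2.42% and 2.63% at 24 h, and at 2.96% and 3.37% at 48 h. The fitted median over the list was 0.03 on the log2 odds scale for the 9 genes and 0.87 for the ribosomal protein genes at 24 h, beside 0.39 over all genes tested, and -0.23 and 0.91 at 48 h, beside 0.13. The difference between the lists was not tested. No ribosomal protein gene passed the threshold in the share under 30 nt or in median tail. At an unadjusted p under 0.05 (quasi-binomial model), 58 of 82 were higher in that share at 24 h and 40 at 48 h, with 0 lower. Of all genes tested 3.28% and 2.63% were higher. In median tail (limma) 0 were higher and 16 lower at 24 h, beside 3.9% and 1.99% of all genes. At 48 h 1 was higher and 3 were lower, beside 3.37% and 2.06%. In abundance Rps14 fell at 48 h (log2 fold change -0.41, adjusted p = 0.0315, limma). In the share of tails from 30 to 90 nt, 4 of them rose at 24 h, namely Rpl23a, Rplp1, Rps12 and Rps21, with log2 odds ratios of 0.30, 0.25, 0.34 and 0.47 (adjusted p from 0.000374 to 0.00669, quasi-binomial model).

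Other genes of the pathway gave no calls either. Of 28 genes for regulators of the cap complex, 21 passed the filter in abundance, and 0 passed the threshold in any measure at either time. The same was found for 21 of 22 genes for other initiation factors and for all 13 subunits of eIF3. That large factor joins eIF4F to the small ribosomal subunit. Pooled over the eIF3 subunits and over the other initiation factors, however, the share of tails under 30 nt was higher in siLarp1 without overlap at 24 h. The cap-complex regulators were not pooled. It was at most 3.28% in siCtl and at least 3.77% in siLarp1 libraries for the eIF3 subunits. For the other initiation factors these limits were 2.53% and 2.66%, and over all kept reads they were 2.42% and 2.63%. Both lists overlapped between treatments in this share at 48 h. Median log2 fold changes of abundance were 0.02 at 24 h and 0.07 at 48 h for the cap-complex regulators and -0.18 and -0.19 for the eIF3 subunits, beside 0.02 and 0.05 over all genes. For the 9 genes they were 0.02 and 0.21, with 5 of 9 and 7 of 9 above 0. The summed eIF3 level at 24 h was 4330 ± 122 RPM with siLarp1 against 4896 ± 77.2 RPM with siCtl (SD, n = 3 each), without overlap. That of the 9 genes was 4532 ± 208 RPM against 4828 ± 146 RPM, with overlap. At 48 h the eIF3 level was 4424 ± 149 RPM with siLarp1 against 5049 ± 76.9 RPM with siCtl (SD, n = 2 each), lower without overlap. The level of the 9 genes was then 5137 ± 239 RPM against 4802 ± 229 RPM, higher and only just without overlap. The lowest siLarp1 library was at 4969 RPM and the highest siCtl library at 4964 RPM. Of single genes, 6.06% were lower without overlap at 24 h, and 15% were lower and 18.1% higher at 48 h.

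The effects at 24 h and 48 h were compared by an interaction term. No member passed the threshold, and neither did any other gene, in abundance, median tail or either share (0.0% of the genes tested). At an unadjusted p under 0.05 there were 2 members in abundance, beside 4.35% of all genes, 0 in median tail, beside 4.99%, 0 in the share under 30 nt, beside 2.41%, and 1 in the share of 30 to 90 nt, beside 6.15%. The effect on log2 abundance at 48 h minus that at 24 h was -0.55 (SE 0.27, adjusted p = 0.970, limma) for Eif4h and 0.82 (SE 0.41, adjusted p = 0.970, limma) for Eif4ebp2. For Eif4g1 it was -1.66 (SE 0.81, adjusted p = 0.783, quasi-binomial model) in the log2 odds of a tail of 30 to 90 nt.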

How the data were processed

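Direct RNA libraries of P19 cells were made after poly(A) selection, and 10 libraries in 4 groups were grouped by treatment and time from the labels. The authors called bases with Guppy, separated barcodes with Deeplexicon, aligned reads to GENCODE vM17 transcripts (mm10) with Minimap2 2.20 and measured tails with Nanopolish. The deposited table gives, per read and aligned sequence, the tail length in nt, a mapping quality score and a fraction that states how sure the barcode call is, with no normalized value. Library names 19, 21 and 22 are at 24 h and 24 and 25 at 48 h, and which labelled replicate each is was not stated.

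Alignments to annotated transcripts with a PASS tail estimate were kept, without mitochondrial transcripts and those whose annotated type is pseudogene: 2042110 of 2652217. Reads were tallied per gene and scaled to the kept reads (RPM). Genes needed 30 reads in all and, for tails, reads in no fewer than 2 libraries per group. Models of abundance used limma 3.58.1 voom (R 4.3.3), those of median tails limma weighted by reads with a trended prior, and those of shares a quasi-binomial likelihood with a dispersion moderated by limma and not below 1, all on 10 libraries with a mean per group. P-values were adjusted over all genes tested (Benjamini-Hochberg, threshold 0.05). The models were tested on simulated data with shares far above those of tails under 30 nt. The genes changed there had more reads than Eif4a2, Eif4g1 or Eif4ebp2. Recovery of changes in short-tail shares or in these genes was therefore not tested. Share differences are log2 odds ratios, to whose tallies 0.5 was added. Larp1 was compared by an exact permutation test. Binomial intervals are exact (Clopper-Pearson, 95%). Sequences came from GENCODE vM21 transcripts and RefSeq promoters, both of GRCm38; the transcript coordinates in the deposited table equal those of vM21 for all 33 member transcripts.

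Library numbers are shared by siCtl and siLarp1 at a time, and at 24 h the same number means the same barcode. Over 278 genes with at least 1000 reads, same-numbered libraries at 24 h deviated together in abundance (correlations of 0.183, 0.564 and 0.508), and for median tails at 0.0963, 0.207 and 0.124. The fit with the number as a block was an alternative.

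The members, the gene lists, the tests and the rule for named genes were chosen with earlier results of these data known. All 9 members and Larp1 are named, other list genes only past the threshold, and 1 gene of most alike tail profile for each member with at least 1000 reads, and Rpl4 is shown for its start site only. Levels of Eif4a1 and Eif4a2 may share misassigned reads, since these genes are alike in sequence and reads were assigned by their best alignment.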

Additional observations from a re-analysis of the deposited data

Results flagged for a closer look

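Eif4h was flagged because every siLarp1 library was above every siCtl library in abundance at 24 h and below every siCtl library at 48 h. The mean difference between siLarp1 and siCtl was 55.2 RPM at 24 h and -66.1 RPM at 48 h, so that the effects differed by -121.3 RPM, a difference for which the interaction term gave an adjusted p of 0.970 (limma). With strict reads, 214 of its 626, the log2 fold change at 48 h was 0.058, in the other direction. The siCtl libraries alone were at 271.3 ± 13.6 RPM (SD, n = 3) at 24 h and 388.2 ± 2.99 RPM (SD, n = 2) at 48 h, while the siLarp1 libraries were at 326.5 ± 25 RPM (SD, n = 3) and 322.2 ± 1.89 RPM (SD, n = 2).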

How the results depend on the processing

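No alternative brought any of the 9 genes past the threshold in any measure, at either time or between times. The smallest adjusted p over all of them was 0.0724, for Eif4a1 abundance at 24 h with no minimum of reads, where its range over alternatives was 0.0724 to 0.943. The replicate block, with the library number as a term, gave 0.170 for the same gene and changed no call. Over the 72 estimates of the 9 genes, 1301 refits gave 1176 estimates in the same direction and 125 in the other, 69 of them when 1 library was left out. Of the 15 estimates described above with an unadjusted p under 0.05 or without overlap, none turned when 1 library was left out. Where groups do not overlap, leaving 1 library out cannot turn the direction, so that this outcome was fixed beforehand for those estimates. Eif4h abundance at 48 h turned to 0.058 (log2) with strict reads (mapping quality of at least 10, barcode confidence of at least 0.9 and a single alignment), which kept 214 of its 626 reads. The share under 30 nt turned to 1.02 (log2 odds) for Eif4a2 at 48 h with strict reads, to -1.17 for Eif4g1 at 24 h with a limit of 20 nt, and to 0.011 for Eif4g2 at 48 h with the transcript with the most reads alone. The cause was not tested. No read of Larp1 and 1 of 280 Eif4g1 reads passed the strict filter, so that neither could be fitted there. The Larp1 difference ranged from -55.5 to -42.6 RPM at 24 h and from -147 to -101 RPM at 48 h when 1 library was left out. Where 48 h then had 1 library in a group, its spread was taken from the other groups. Depth limits the members other than Eif4a1, Eif4g2 and Eif4ebp1, which had 11 to 118 reads per library.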
